A study of Mus musculus with 3 samples.

Results

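The genes described here are those of ribosome biogenesis and RNA polymerase I, in mouse CAD cells in which the splicing regulator Ptbp1, alone or with its paralogue Ptbp2, was targeted with siRNAs. CAD is a catecholaminergic neuroblastoma line. The 3 groups were cells given siRNAs against Ptbp1 and Ptbp2 together, cells given siRNAs against Ptbp1 alone, and cells given control siRNAs, all of the ON-TARGETplus type and all harvested 72 h after transfection. Poly(A)+ RNA of each group was sequenced in 1 library, so every group is 1 library of 1 line. The gene clusters held 14242495 reads in the library with both siRNAs, 16899549 after Ptbp1 siRNA and 16011466 in the control. Single libraries leave the differences described here without a check between replicates, so no p-value is given.

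A list of 40 symbols was looked up among the aliases of the 27389 gene clusters of the deposited table, and 34 had a row. The symbols share a function, but the list was drawn up with earlier results of these 3 libraries in view, so its genes count as selected on their read values there. Their differences from the control are therefore a description and test nothing. The alias Pop1 occurred in 2 rows. The row with more reads lies on chromosome 10 at Bves, a gene of a muscle and epithelial membrane protein that carries Pop1 as an old name, so the row at the position of Pop1 itself on chromosome 15 was used. Of the 6 symbols without an alias, Polr1c, Nop58, Nop14, Nop2 and Nop16 were found by position under older names and are given separately from the 34, while Noc2l was not analysed here. All 39 rows reached 1 CPM, a scaled read value equal to 14.5 reads with both siRNAs, 17.2 after Ptbp1 siRNA and 15.5 in the control, in every pair of libraries, so none was lost to the filter on low values.

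Ribosomes are assembled in the nucleolus. RNA polymerase I copies the rDNA into a long precursor, small nucleolar RNPs modify it, and a large set of assembly factors cuts and folds it into the small and large subunits together with the ribosomal proteins. The pathway is most active in growing cells, is driven by the transcription factor Myc, and is usually turned down when neuronal precursors stop dividing.

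Of the targeted genes, Ptbp1 was low in both knockdown libraries. It had 1516 reads with both siRNAs, 1486 after Ptbp1 siRNA and 7191 in the control, which is 4.43-fold lower with both siRNAs than in the control (95% counting interval 4.19 to 4.69), although 16.3% of its exon bases lie under exons of other genes. Ptbp2 had 633, 3044 and 784 reads in the same order. Relative to the control, Ptbp2 was 1.16-fold lower with both siRNAs (1.04 to 1.29) and 3.49-fold higher in the Ptbp1 siRNA library. Of 8 markers of catecholaminergic neurons and their precursors, 7 reached 1 CPM in each library, and the summed level of the 8 was 1965 CPM with both siRNAs, 1679 CPM after Ptbp1 siRNA and 1652 CPM in the control. The markers of other cells were low. The 7 fibroblast markers summed to 8.16, 10.6 and 11.6 CPM in that order of libraries, with Col1a2 at 0 reads in all of them. The 6 glial markers summed to 5.12, 6.51 and 3.29 CPM and the 6 blood and endothelial markers to 11.8, 16.9 and 22.4 CPM, with the globin genes at 0. In RNA of whole cultures a change in the share of cells and a change in RNA per cell cannot be told apart.

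Nearly all ribosome biogenesis genes were higher in the knockdown libraries than in the control, by modest amounts, and all 34 found by alias were higher with both siRNAs than after Ptbp1 siRNA alone. The 34 genes together held 0.654% of all gene reads with both siRNAs, 0.521% after Ptbp1 siRNA and 0.407% in the control. Ncl, the most read of them, made up 22.9%, 23.2% and 24.2% of that. Without it the shares were 0.504%, 0.401% and 0.309%. With both siRNAs the median log2 difference from the control, on the log2(CPM + 1) scale used for all differences here, was 0.66, beside -0.01 for the 13465 genes at 1 CPM. All 34 lay above 0, as did 48.9% of all genes. For 33 of the 34 the 95% interval of the read ratio excluded 1, but the share of all genes with such an interval was not computed. At these read values it excludes 1 for small ratios too, such as the 1.09 of Pes1 (1.02 to 1.17). At a size of 1.5-fold on the log2(CPM + 1) scale with an interval excluding 1, 24 of the 34 were higher and 0 lower, beside 7.23% and 10.0% of all genes. At 2-fold, 2 were higher, Rrp12 and Pop1, beside 1.05% of all genes, and 0 were lower, beside 2.67%. The 2 became 5 under library-total scaling and 4 under quantile scaling. Nearest to the 1.5-fold limit of 0.585 were Utp6 inside it at 0.60 and Nat10 outside it at 0.58. The intervals cover counting error only, and since reads from amplified DNA without molecular identifiers are not independent molecules they may be too narrow even for that.

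After Ptbp1 siRNA alone the median difference from the control was 0.31, beside -0.01 for 13399 genes. Of the 34 genes 30 were above 0, beside 48.5% of all genes. Npm1, Utp3, Pes1 and Rrs1 were slightly below it, but scaling by library totals or the deposited RPKM put all of these except Npm1 above 0, and quantile scaling did so for Pes1. At 1.5-fold 3 genes were higher, Rrp12, Bop1 and Polr1a, beside 2.93% of all genes, and 0 were lower, beside 3.46%. At 2-fold Rrp12 alone was higher, beside 0.269% of all genes, and 0 were lower, beside 0.455%. Polr1a lay nearest inside the 1.5-fold limit, at 0.65, and Pop1 nearest outside it, at 0.583. Library-total scaling gave 5 in place of the 3.

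Between the knockdown libraries, with both siRNAs against Ptbp1 siRNA alone, the median difference was 0.34, beside -0.004 for 13463 genes, and all 34 were above 0, beside 49.4%. Nolc1 and Pop1 were higher by 1.5-fold, beside 1.83% of all genes, and 0 were lower, beside 3.52%. At 2-fold 0 of the 34 were higher and 0 lower, beside 0.0891% and 0.342%. In 30 of the 34 genes the level was highest with both siRNAs, intermediate after Ptbp1 siRNA and lowest in the control, an order found in 27.4% of the 13577 genes that reached 1 CPM. The 2 comparisons with the control share that library, so their values are given side by side.

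**Figure D1:**
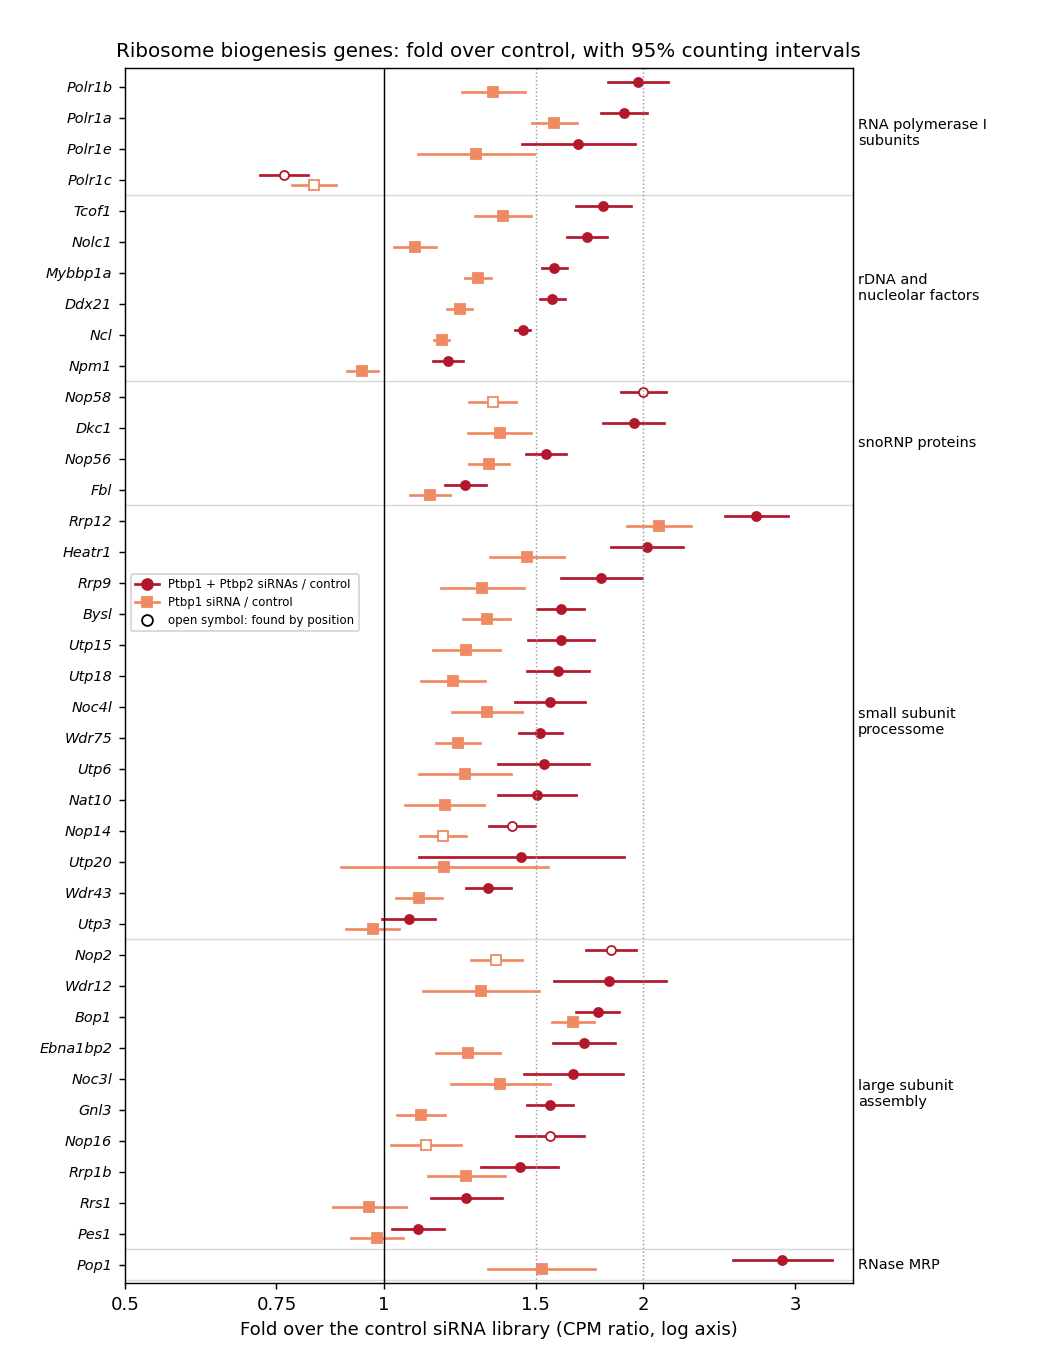
Fold over the control siRNA library (CPM ratio, log axis) for the 34 genes found by alias (filled) and the 5 found by position (open), with Ptbp1 and Ptbp2 siRNAs together (red circles) and Ptbp1 siRNA alone (orange squares); bars are 95% counting intervals and dotted lines mark 1.5-fold and 2-fold. Apart from Polr1c, every red point lies to the right of 1, and Pop1 and Rrp12 lie farthest right.

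The levels themselves spanned a wide range. By the deposited RPKM, which divides reads by exon length, the 34 genes lay between 2.05 and 138 RPKM with both siRNAs (median 24.2), between 1.67 and 109.5 after Ptbp1 siRNA (median 18.6) and between 1.36 and 111 in the control (median 14.5). Npm1, which encodes the abundant nucleolar chaperone nucleophosmin, was highest in every library. Fbl and Ncl followed it. Ncl had the most reads, but its row has a length of 8257 bases, against 1659 for Npm1, and this order depends on those lengths. In the control order, 18 of the 33 pairs of neighbouring genes had counting intervals that overlapped, so their order is not resolved. Utp20 was lowest in every library, but its row covers 39.2% of the annotated span of the gene. A second row of the table, with the alias DRIM, lies in the rest of that span on chromosome 10 (88209353 to 88237717). It had 906 reads with both siRNAs, 841 after Ptbp1 siRNA and 614 in the control, where the row named Utp20 had 128, 124 and 95. Its deposited RPKM was 9.51, 7.42 and 5.75 in that order. The row named Utp20 had 2.05, 1.67 and 1.36, the lower ends of the ranges above. The folds of these rows with both siRNAs over the control were 1.58 (1.42 to 1.75) for DRIM and 1.44 (1.10 to 1.90) for Utp20, with intervals that overlap.

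**Figure D2:**
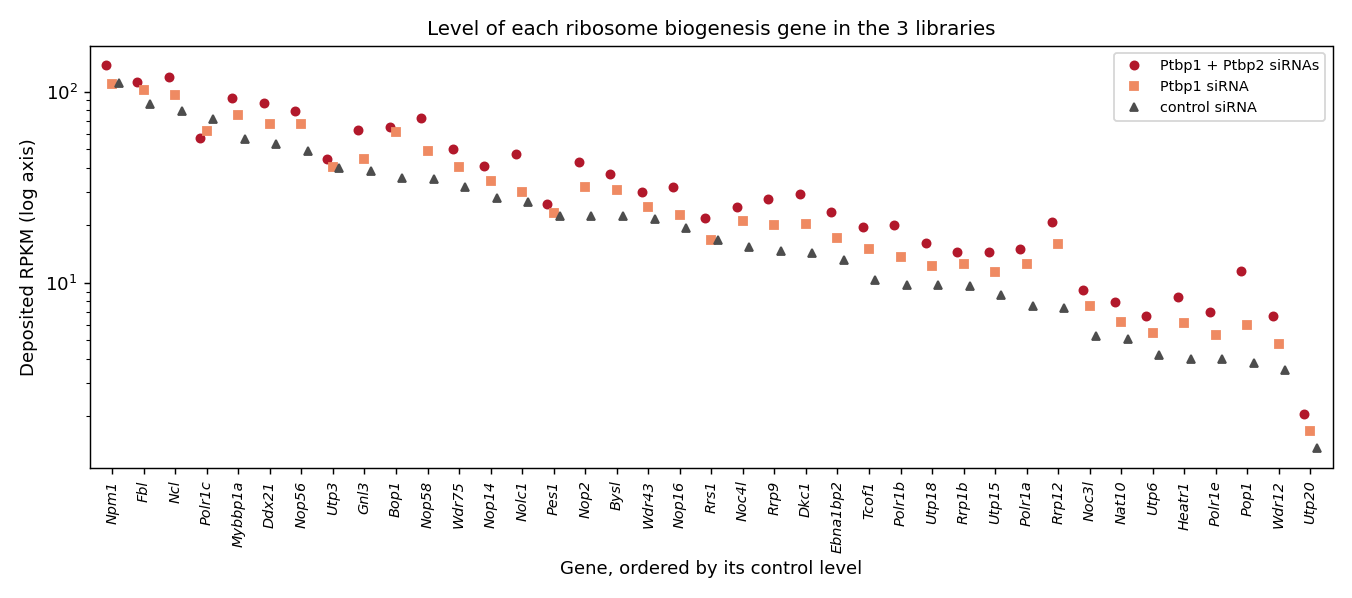
Deposited RPKM (log axis) of each of the 39 ribosome biogenesis genes in the libraries with both siRNAs (red circles), Ptbp1 siRNA (orange squares) and control siRNA (grey triangles), ordered by the control level. The red circle lies above the grey triangle in every gene but Polr1c. The row of Utp20, which covers 39.2% of the annotated span of that gene, is lowest.

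To show what the starts of these genes look like, 4 short motifs were counted in their promoters. RefSeq promoter windows (GRCm38.p6, 250 bases before to 50 after the start) were present for 31 of the 39 genes, in 34 windows; there was none for Npm1, Tcof1, Fbl, Utp6, Rrp12, Bop1, Rrs1 and Pop1. The E-box CACGTG, the sequence that Myc with its partner Max binds, occurs in 6 of the 34 windows (17.6%), those of Mybbp1a, Nop2, Pes1, Utp18, Utp20 and Wdr43, beside 7.15% of all 32851 windows and 9.78% of the 10364 windows of genes at 1 CPM in these cells. The ETS-type sequence CCGGAAG, on either strand, occurs in 9 windows (26.5%), beside 8.86% and 16.2%. These are the windows of Ebna1bp2, Heatr1, Noc3l, Nolc1, Nop2, Polr1c, Polr1e, Utp18 and Utp3. TATAAA, on either strand, occurs in 2 (5.88%), beside 13.6% and 6.99%, and the palindromic NRF1 motif in 0, beside 0.971% and 2.06%. Such matches are descriptions of sequence and show no binding. The stretches below, 5′ to 3′ on the gene's own strand, are examples of an E-box or ETS sequence before the start. The motif is in capitals. They are not all such matches. ETS sequences also begin 42 bases before the start in Polr1c, 38 in Nop2, 106 in Utp18, 224 and 138 in Utp3 and 3 in Ebna1bp2. Of these genes Polr1c was lower with both siRNAs than in the control, and the interval of Utp3 included 1. In Nop2 the E-box begins 60 bases before the start (chr6:125131803-125131848, plus strand) and in Utp18 it begins 20 bases before (chr11:93885767-93885806, minus strand). In Heatr1 the ETS sequence begins 16 bases before the start (chr13:12395339-12395374, plus strand) and in Nolc1 14 bases before (chr19:46075813-46075846, plus strand).
Nop2: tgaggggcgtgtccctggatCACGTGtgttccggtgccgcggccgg
Utp18: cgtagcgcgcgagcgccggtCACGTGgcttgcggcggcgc
Heatr1: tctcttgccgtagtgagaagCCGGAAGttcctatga
Nolc1: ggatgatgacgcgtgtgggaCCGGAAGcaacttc

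The 3 polymerase I subunit genes found by alias were all higher by 1.5-fold with both siRNAs. Polr1a, which encodes the largest and catalytic subunit of RNA polymerase I (chromosome 6, 71859068 to 71934930 of the mm9 build, as for all gene positions), had 2902 reads with both siRNAs, 2867 after Ptbp1 siRNA and 1637 in the control. It was 1.90-fold higher with both siRNAs than in the control (1.79 to 2.02) and 1.58-fold higher after Ptbp1 siRNA (1.48 to 1.68). Between the knockdown libraries its log2 difference was 0.27, higher with both siRNAs. Polr1b, the gene of the second largest subunit (chromosome 2, 128926778 to 128952332), had 1713, 1385 and 931 reads in the same order of libraries. It was 1.97-fold higher with both siRNAs (1.82 to 2.14) and 1.34-fold after Ptbp1 siRNA (1.23 to 1.46). Polr1e, which encodes the polymerase-associated factor PAF53 (chromosome 4, 45031498 to 45046565), had 446, 403 and 284 reads. Its folds over the control were 1.68 with both siRNAs (1.45 to 1.96) and 1.28 after Ptbp1 siRNA (1.09 to 1.49).

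Polr1c differed from the other subunits. Its product is shared by RNA polymerases I and III, and its row (chromosome 17, 46380870 to 46384995, alias Rpo1-1) had 1618 reads with both siRNAs, 2084 after Ptbp1 siRNA and 2262 in the control. It was 1.31-fold lower with both siRNAs (1.23 to 1.39) and 1.21-fold lower after Ptbp1 siRNA (1.14 to 1.28). It was lower under each of the 5 scalings tried, with log2 differences between -0.38 and -0.31 with both siRNAs, and on the scale used here it was the only one of the 39 genes below the control with both siRNAs.

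Nucleolar factors of rDNA transcription and early processing varied by gene. Tcof1, which encodes treacle, a nucleolar protein that promotes rDNA transcription, had 1927 reads with both siRNAs, 1752 after Ptbp1 siRNA and 1148 in the control, and its folds over the control were 1.80 with both siRNAs (1.67 to 1.94) and 1.37 after Ptbp1 siRNA (1.27 to 1.48). Nolc1, whose product Nopp140 escorts small nucleolar RNPs (chromosome 19, 46150354 to 46160021), had 3717, 2792 and 2314 reads. It was 1.72-fold higher than in the control with both siRNAs (1.63 to 1.81), but 1.09-fold after Ptbp1 siRNA (1.03 to 1.15). Between the knockdown libraries it was 1.58-fold higher with both siRNAs (1.51 to 1.66). Mybbp1a, the gene of a Myb-binding nucleolar protein, had 8248, 7997 and 5601 reads. Ddx21, an RNA helicase gene of polymerase I transcription and processing, had 8904, 8271 and 6081. With both siRNAs these genes were 1.58-fold (1.52 to 1.63) and 1.57-fold higher (1.52 to 1.62).

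Ncl and Npm1 differed least of these 6 genes with both siRNAs. Ncl, the nucleolin gene (chromosome 1, 88241295 to 88256031), had 21317 reads with both siRNAs, 20415 after Ptbp1 siRNA and 15759 in the control. Its level was 1.45-fold higher with both siRNAs (1.42 to 1.48) and 1.17-fold after Ptbp1 siRNA (1.14 to 1.19). The cluster of Ncl overlaps another, but none of its exon bases lie under annotated exons of other genes. Npm1 had 4928, 4660 and 4447 reads and was 1.19-fold higher with both siRNAs (1.14 to 1.24) but 1.06-fold lower after Ptbp1 siRNA (1.02 to 1.105). That sign held under all 5 scalings, but the log2 difference ran between -0.08 and -0.01, so it was slight.

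Proteins of the small nucleolar RNPs guide rRNA modification. In the box C/D particle Fbl encodes the methyltransferase fibrillarin, and Nop56 and Nop58 encode its paired scaffold proteins. Fbl (chromosome 7, 28954768 to 28964289) had 2812 reads with both siRNAs, 3040 after Ptbp1 siRNA and 2422 in the control. Its level was 1.24-fold higher with both siRNAs (1.18 to 1.31) and 1.13-fold after Ptbp1 siRNA (1.07 to 1.19). Nop56 had 3324, 3397 and 2310 reads, and its folds over the control were 1.54 with both siRNAs (1.46 to 1.63) and 1.32 after Ptbp1 siRNA (1.25 to 1.40). Nop58, found by position under the alias Nol5, had 3105, 2470 and 1663 reads, and its folds over the control were 2.00 with both siRNAs (1.88 to 2.12) and 1.34 after Ptbp1 siRNA (1.26 to 1.42). Genes of 1 particle thus differed by unequal amounts, and with both siRNAs the intervals of Fbl, Nop56 and Nop58 did not overlap. Dkc1, which encodes the pseudouridine synthase of the box H/ACA particle (chromosome X, 72341256 to 72355072), had 1689, 1404 and 928 reads, and its folds over the control were 1.95 with both siRNAs (1.80 to 2.11) and 1.36 after Ptbp1 siRNA (1.25 to 1.48).

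Genes of the small subunit processome, the assembly that forms on the 5′ part of the precursor, included the second largest fold. Rrp12, a factor of late small subunit maturation and export known best from yeast (chromosome 19, 41937342 to 41970644), had 1938 reads with both siRNAs, 1777 after Ptbp1 siRNA and 767 in the control. Its level was 2.70-fold higher than in the control with both siRNAs (2.49 to 2.94) and 2.09-fold after Ptbp1 siRNA (1.91 to 2.27), and 99.8% of genes had a lower difference with both siRNAs. Under a pseudocount of 5 CPM it no longer reached 2-fold after Ptbp1 siRNA. Heatr1, whose yeast counterpart Utp10 links polymerase I transcription to processing (chromosome 13, 12487643 to 12531161), had 1234, 1065 and 654 reads. Its level was 2.02-fold higher with both siRNAs (1.84 to 2.22) and 1.47-fold after Ptbp1 siRNA (1.33 to 1.62), but at 0.997 on the log2(CPM + 1) scale it was just short of the 2-fold call.

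At the other end, Utp3, a component of the processome also known as Sas10, had 1536 reads with both siRNAs, 1659 after Ptbp1 siRNA and 1540 in the control. Its folds of 1.07 (0.994 to 1.15) and 0.970 (0.904 to 1.04) had intervals that include 1. With both siRNAs it is the 1 gene of the 34 whose interval includes 1. The 9 others of this group apart from Utp20, which were Utp6, Utp15, Utp18, Wdr43, Wdr75, Noc4l, Rrp9, Bysl and Nat10, had log2 differences between 0.40 and 0.82 with both siRNAs and between 0.13 and 0.39 after Ptbp1 siRNA. Highest of them with both siRNAs was Rrp9, the gene of a protein of the U3 small nucleolar RNP, with 913, 790 and 547 reads. Lowest in both comparisons was Wdr43, with 2360, 2330 and 1912 reads. Nat10, the gene of an rRNA acetyltransferase, had 876, 814 and 623 reads. Nop14, found by position, had 2394, 2368 and 1822 reads and differences of 0.49 and 0.22.

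Large subunit assembly has at its centre the PeBoW complex, made of the products of Pes1, Bop1 and Wdr12, and here too the genes of 1 complex differed unequally. Pes1 had 1616 reads with both siRNAs, 1723 after Ptbp1 siRNA and 1580 in the control, and log2 differences of 0.13 and -0.03. Bop1 (chromosome 15, 76283690 to 76307700) had 3122, 3477 and 1889 reads. It was 1.77-fold higher with both siRNAs (1.67 to 1.87) and 1.66-fold after Ptbp1 siRNA (1.57 to 1.75). Between the knockdown libraries it was 1.07-fold higher with both siRNAs (1.02 to 1.12). Its cluster overlaps another, and 1.72% of its exon bases lie under exons of other genes. Wdr12 had 481, 406 and 282 reads, and its folds over the control were 1.83 with both siRNAs (1.57 to 2.12) and 1.30 after Ptbp1 siRNA (1.11 to 1.51).

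The 5 other large subunit genes found by alias, Noc3l, Rrp1b, Rrs1, Gnl3 and Ebna1bp2, had differences between 0.31 and 0.76 with both siRNAs and between -0.06 and 0.43 after Ptbp1 siRNA. Gnl3, which encodes nucleostemin, a GTP-binding nucleolar protein of dividing precursor cells, had 2536 reads with both siRNAs, 2134 after Ptbp1 siRNA and 1742 in the control. Its level was 1.56-fold higher with both siRNAs (1.47 to 1.66) and 1.10-fold after Ptbp1 siRNA (1.03 to 1.18). Nop2, the gene of an rRNA methyltransferase, and Nop16, both found by position, had differences of 0.87 and 0.63 with both siRNAs and 0.43 and 0.16 after Ptbp1 siRNA.

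Pop1 encodes the large protein subunit of RNase MRP, which cuts the rRNA precursor, and of RNase P, which trims tRNA precursors. Its row (chromosome 15, 34425079 to 34460404) had 837 reads with both siRNAs, 523 after Ptbp1 siRNA and 309 in the control. It was 2.90-fold higher with both siRNAs (2.54 to 3.32), the largest fold of the 39 genes, and 1.52-fold after Ptbp1 siRNA (1.32 to 1.76). It was also 1.90-fold higher with both siRNAs than after Ptbp1 siRNA (1.70 to 2.13). With both siRNAs 99.9% of genes had a lower difference. The cluster overlaps no other.

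The difference was similar in long and short genes. Split at their median exon length of 3021 bases, the 17 longer genes had a median difference of 0.68 with both siRNAs and the 17 shorter ones 0.62, beside -0.03 and 0.01 for longer and shorter genes among all genes tested. Of the 34 clusters 31 overlap no other cluster, and those of Ncl, Wdr43 and Bop1 do. The largest share of exon bases lying under other genes was 9.16%, in Bysl.

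A further 116 symbols of the same pathway, listed from general knowledge but with earlier results of these libraries known, gave a weaker shift. Since the 34 genes count as selected on their read values in these libraries, that contrast tests nothing. Of the 115 found, 103 were above 0 with both siRNAs and 12 below, beside 48.9% of all genes above 0, with a median difference of 0.31. At 1.5-fold 23 of the 115 were higher and 0 lower, beside 7.23% and 10.0% of all genes. After Ptbp1 siRNA the median was 0.10, with 3 higher by 1.5-fold (2.61%), a share near the 2.93% of all genes. Other polymerase I subunits and initiation factors had a median of 0.47 with both siRNAs over 11 genes. Cd3eap, a polymerase I subunit gene, was at 0.94, Twistnb, another, at 0.66 and Taf1c, of the promoter selectivity factor, at 0.62, although 14.2% of the exon bases of Taf1c lie under other genes. Taf1a was at 0.55 on 74, 72 and 49 reads. Of the 11, 8 were above 0 and 3 below, beside 48.9% of all genes above 0. The polymerase I subunit genes Polr1d and Znrd1 were at 0.13 and -0.09, and the interval of Znrd1 included 1 (fold 0.935, 0.805 to 1.09). The termination factor gene Ttf1 was lowest, at -0.48, with 201 reads with both siRNAs, 282 after Ptbp1 siRNA and 307 in the control.

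Other small subunit genes had a median of 0.33 with both siRNAs over 40 genes, with 10 higher by 1.5-fold, beside 7.23% of all genes, and Wdr46 (0.98), Pno1 (0.92), Cirh1a (0.90) and Dhx37 (0.82) highest. Other large subunit genes had a median of 0.35 over 43 genes, with 9 higher by 1.5-fold, beside the same 7.23%. Mdn1, the gene of the giant AAA ATPase that in yeast releases assembly factors, had 2060 reads with both siRNAs, 1995 after Ptbp1 siRNA and 1052 in the control. At 1.06 it was the 1 gene of the 115 higher by 2-fold, beside 1.05% of all genes. Mrto4, Rpf2 and Ftsj3 were at 0.96, 0.95 and 0.94. Other small nucleolar RNP genes had a smaller median of 0.21 over 12 genes. Among them Nhp2, a box H/ACA protein gene, stood at 0.94, and Znhit6, Znhit3 and Naf1 at 0.53, 0.35 and 0.31. The 9 other proteins of RNase MRP and P found had a median of 0.07, with Rpp14 at 0.56, Rpp30 at 0.50, Rpp40 at 0.40 and Rpp38 at 0.34. At 1.5-fold 0 of the 9 were higher and 0 lower, beside 7.23% and 10.0% of all genes, shares at which so few genes would give few calls.

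**Figure D3:**
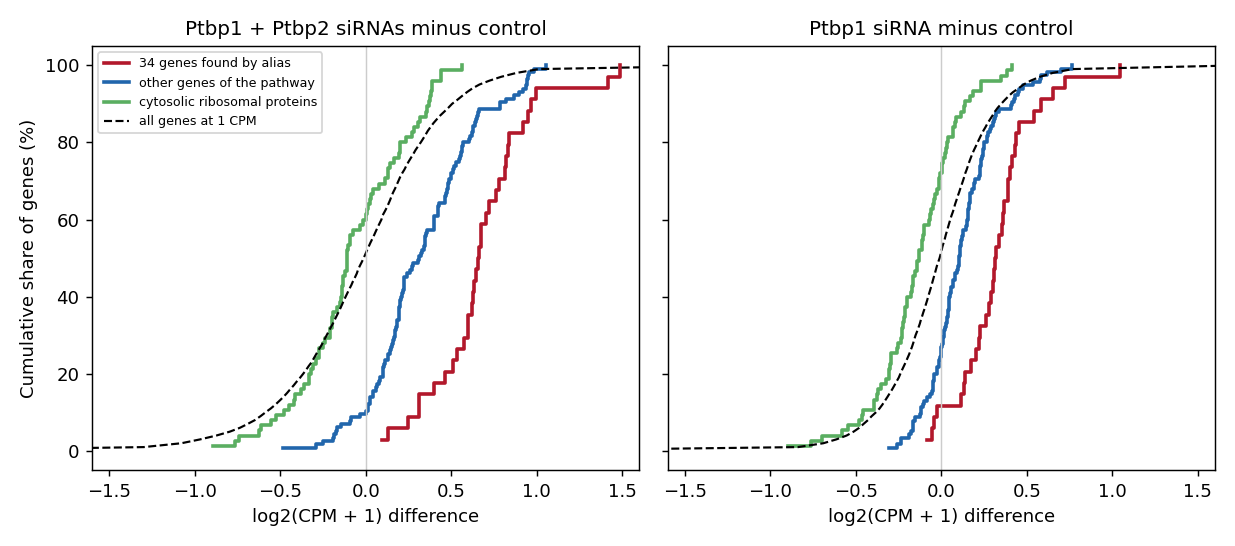
Cumulative share of genes (%) against the log2(CPM + 1) difference from control, with both siRNAs (left) and Ptbp1 siRNA (right), for the 34 genes found by alias (red), the other pathway genes (blue), cytosolic ribosomal protein genes (green) and all genes at 1 CPM (dashed). With both siRNAs the red curve begins above 0, the blue curve lies between it and the dashed line, and the green curve crosses the middle at -0.11, left of the dashed line at -0.01.

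The genes of the ribosomal proteins themselves were set beside these lists. The 75 cytosolic ribosomal protein genes had a median of -0.11 with both siRNAs and -0.13 after Ptbp1 siRNA. With both siRNAs 30 were above 0 and 45 below, beside 48.9% of all genes above 0. At 1.5-fold 0 of the 75 were higher and 5 lower, beside 7.23% and 10.0% of all genes, so calls in this list were no more frequent than among all genes. Those lower included Rps15 (-0.76), Rpl36 (-0.74), Rpl38 (-0.62) and Rps20 (-0.61). Many of these genes have near-identical processed copies, so their read values are uncertain. The 76 mitochondrial ribosomal protein genes had a median of 0.13 with both siRNAs, with 5 higher by 1.5-fold (6.58%), a share near the 7.23% of all genes. The highest were Mrpl20 (1.05), Mrps22 (0.90), Mrpl42 (0.79) and Mrpl3 (0.71).

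The lists for RNA polymerases II and III showed small medians. Some subunits of the polymerase II list, such as the product of Polr2f, are shared with RNA polymerase I. The 12 polymerase II subunit genes had a median of 0.09 with both siRNAs, with Polr2f at 0.55, Polr2j at 0.42 and Polr2b at 0.39. At 1.5-fold 0 of the 12 were higher and 0 lower, beside 7.23% and 10.0% of all genes. Polr2j and Polr2b share 15.9% and 81.6% of their exon bases with other genes. The 11 polymerase III genes had a median of 0.12. Their alternative subunit genes went opposite ways, Polr3g at 0.81 and Polr3gl at -0.51, while Crcp was at 0.51.

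Myc had 1867 reads with both siRNAs, 1133 after Ptbp1 siRNA and 893 in the control. It was 2.24-fold higher with both siRNAs (2.07 to 2.43) and 1.14-fold after Ptbp1 siRNA. Mycn had 1452, 1457 and 1288 reads and was at 0.27 with both siRNAs, and Mycl1, with 70, 96 and 82 reads, at -0.11. The part of Myc in the values of the ribosome biogenesis genes was not tested.

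**Figure D4:**
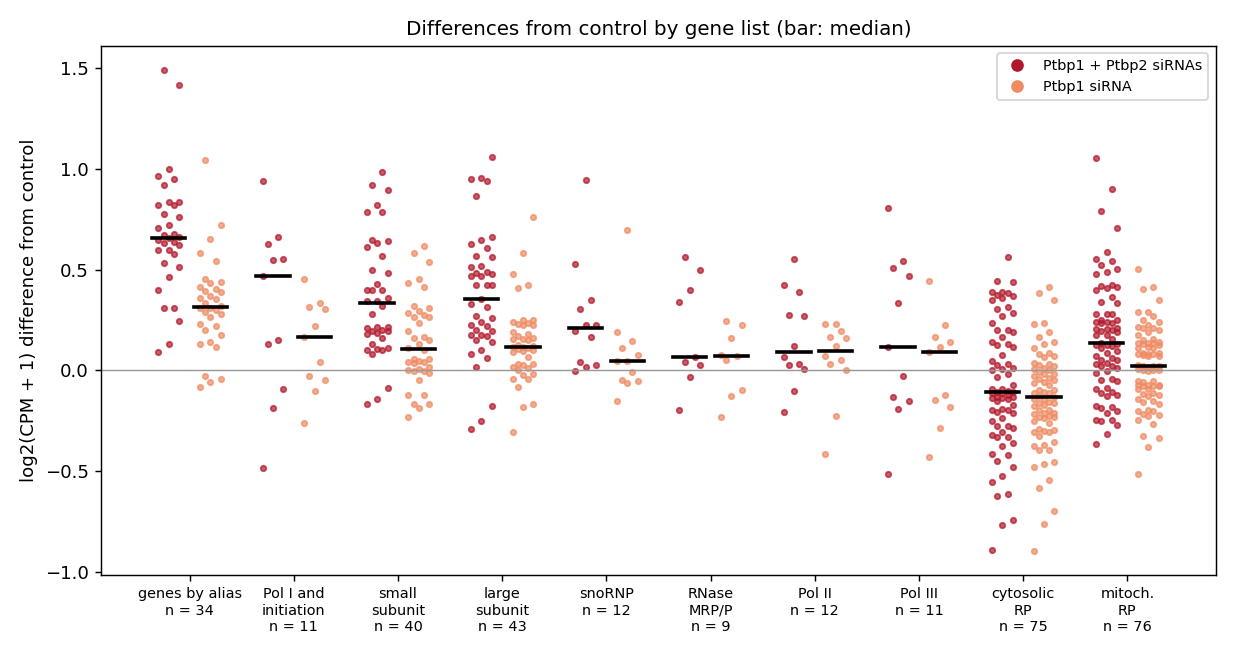
Log2(CPM + 1) difference from control of each gene (points) and list median (bars), with both siRNAs (red, left of each pair) and Ptbp1 siRNA (orange, right), for the 34 genes found by alias, the other pathway lists, RNA polymerase II and III subunits, and cytosolic and mitochondrial ribosomal proteins (RP). The median is highest for the 34 genes, which count as selected on their read values, at 0.66 with both siRNAs. It is lowest for the cytosolic ribosomal proteins, at -0.11.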

How the data were processed

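Poly(A)+ RNA of 3 groups of CAD cells was sequenced in 1 library each, and groups came from the transfection label. The deposited table gives, per gene cluster of the mm9 build per the file headers, a whole-number read value and an RPKM value per library. The read values are a net score and not plain counts, because 38 clusters hold a deposited read value below 0 (down to -65). What was subtracted from them is not given in the sources used here, nor are the aligner, the counter and the gene set. The plan had assumed counts. These 38 clusters and 127 without length were left out, and 27224 remained. The read values of these were treated as counts for the scaling and the intervals, which makes the intervals approximate.

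Read totals were corrected with trimmed-mean (TMM) factors, trimming 30% of M and 5% of A in numpy 2.4.6. The factors were 1.02 with both siRNAs, 1.02 after Ptbp1 siRNA and 0.967 in the control, and 1 CPM stood for 14.5, 17.2 and 15.5 reads. Differences are log2(CPM + 1), which understates low genes. Folds are plain ratios of CPM. Genes under 1 CPM in both libraries of a pair were left out of it. A gene was called at 1.5-fold or 2-fold when its difference reached that size and the exact (Clopper-Pearson, conditional binomial; scipy 1.17.1) 95% interval of the read ratio excluded 1. Intervals of levels are exact Poisson. The calling procedure was run on simulated Poisson counts with planted folds. These hold no variation between libraries and no subtracted reads. That run therefore cannot show how calls behave with 1 library per group.

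Symbols were matched to aliases, checked against GENCODE positions on that build, and otherwise matched by position (overlap of at least 0.5 of the union of spans). Of 362 symbols 341 matched by alias and position, 17 by position and 2 by alias alone. Starts count from 0 in the table and are printed from 1. The library preparation in the labels' protocols does not mark strand, so overlapping genes cannot be told apart.

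The genes and lists were chosen with earlier results of these data known. In each role group of up to 6 genes all are given, and in larger ones those with the largest and smallest difference with both siRNAs and those called at 2-fold; in other lists up to 4 with the largest difference in size. A few genes of these other lists are not reported here. Named outside this rule, after their values were seen, were Heatr1, Utp20, Bop1, Rrp9, Wdr43, Nat10, Gnl3, Polr1d, Znrd1, Ttf1, Rps20 and the genes found by position. Alternatives were pseudocounts of 0.1 and 5 CPM, no filter or 5 CPM, median-of-ratios, quantile and library-total scaling, leaving out overlapping clusters, and the deposited RPKM.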

Additional observations from a re-analysis of the deposited data

How the results depend on the processing

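Over 15 results (the counts of the 34 genes past 1.5-fold and 2-fold in each direction and their median, in 3 pairs) and 11 alternatives, 159 of the 165 recomputed values stayed close to the reported ones, and the medians kept their sign under all alternatives run. The median ran between 0.63 and 0.73 with both siRNAs against the control, between 0.29 and 0.39 for Ptbp1 siRNA against the control, and between 0.32 and 0.36 between the knockdown libraries. The count of genes higher by 1.5-fold with both siRNAs ran between 22 and 26 of the 34. It was 23 of 31 without overlapping clusters and 27 of 39 with the genes found by position. The counts of lower genes were 0 under every setting, so they add to the 159 without showing stability. Some counts that changed, such as 3 genes higher by 1.5-fold after Ptbp1 siRNA becoming 4 under a pseudocount of 0.1 CPM, also passed as close. The 6 values that moved were small counts. Library-total scaling gave 5 genes higher by 1.5-fold after Ptbp1 siRNA in place of 3, and 5 higher by 2-fold with both siRNAs in place of 2, where quantile scaling gave 4. A pseudocount of 5 CPM gave 0 genes higher by 2-fold after Ptbp1 siRNA in place of 1. With the Bves row in place of Pop1, a choice made after seeing the data, 1 gene was higher by 2-fold with both siRNAs and 1 by 1.5-fold between the knockdown libraries. Adding the 5 genes found by position was also chosen after seeing the data. Summing the rows of a symbol was not run, since the rows that share the alias Pop1 belong to different genes. No paired analysis was possible because each group has 1 library, and for the same reason no library could be left out. A limit of 3 counts corresponds to 0.207 CPM with both siRNAs, 0.174 after Ptbp1 siRNA and 0.194 in the control, far below every gene of the list.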

Other observations

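The row that carries the alias Pop1 on chromosome 10 (45055569 to 45089515) lies at Bves. It had 691 reads with both siRNAs, 793 after Ptbp1 siRNA and 465 in the control, and was 1.59-fold (1.41 to 1.79) and 1.53-fold higher than the control (1.37 to 1.72). Its folds over the control were thus near equal in the knockdown libraries, whereas Pop1 itself was at 2.90 and 1.52. A lookup by alias that keeps the row with the most reads would have given the values of Bves under the name Pop1.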
